A study of Sus scrofa domesticus with 12 samples.

Results

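The neuromuscular junction and denervation genes are 10 genes chosen by name: the muscle acetylcholine receptor subunits CHRNA1, CHRNB1, CHRND, CHRNE and CHRNG, the receptor kinase MUSK, acetylcholinesterase (ACHE) and its collagen tail COLQ, the adhesion molecule NCAM1 and the stress gene GADD45A. Of these 10, 5 were found among the 11485 genes with a usable name in the abundance table, namely CHRNA1, CHRNE, ACHE, NCAM1 and GADD45A. CHRNB1, CHRND, CHRNG, MUSK and COLQ were not analysed here. RNA was sequenced from the peroneus tertius (PT) muscle, a flexor of the ankle, of female young-adult Yorkshire Cross pigs 12 weeks after surgery. Both hind limbs of a pig received either a volumetric muscle loss (VML) injury, in which a block of muscle was cut from the middle of the PT, or a sham procedure that exposed the muscle and removed nothing. The 12 libraries, each from 1 limb, came from 11 pigs: 2 sham-operated limbs (pigs 025 and 026), 2 VML-injured limbs left without repair (non-repaired, pigs 017 and 023), 2 filled with a hyaluronic acid hydrogel (Hya-repaired, pigs 016 and 017) and 6 given an extracellular matrix sheet (ECM-repaired, pigs 013, 014, 018, 021, 022 and 024). The labels call the 6 sheets ECM-SIS, made from small intestinal submucosa. The study itself lists limbs repaired with urinary bladder matrix, beside those repaired with small intestinal submucosa, among those it sequenced. The labels do not tell the materials apart, so the 6 were kept as 1 group that may hold both.

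At the neuromuscular junction the motor axon releases acetylcholine onto receptors packed into the muscle membrane opposite it, and acetylcholinesterase in the cleft breaks the transmitter down. The nuclei below an innervated junction transcribe the receptor genes, whereas nuclei elsewhere along the fiber are kept silent by nerve-driven activity. When a fiber loses its nerve this restraint is lost, receptor subunit genes and NCAM1 are switched on along the fiber, and genes such as GADD45A, RUNX1 and the ubiquitin ligases of atrophy respond too.

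Levels are TPM, transcript abundances that are per transcript length and scaled to a common sum in each library, so they do not give the number of reads behind a value. Between 71.5 and 82.7% of a library's TPM fell on genes with a name. Fold changes are on the log2(TPM + 0.5) scale, which understates the change of a gene at low level, and p-values, from limma over 8765 genes with Benjamini-Hochberg adjustment, measure the spread between these limbs. On this scale the median of all tested genes was 0.73 higher in VML-injured than in sham-operated limbs, and multiplying each library by a factor from trimmed mean log ratios took that median to −0.02. Rescaled values are given beside the changes in VML-injured limbs. The muscle fiber itself differed between the groups: 22 fiber genes summed to 194863 and 206162 TPM in sham-operated muscle and to between 15016 and 112593 TPM in the 10 VML-injured limbs. In whole tissue, fewer cells of a type and less RNA per cell cannot be told apart.

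CHRNE, NCAM1 and GADD45A were higher in VML-injured than in sham-operated muscle, and CHRNA1 and ACHE were not called in either direction. That is 3 of 5 genes higher at an adjusted p under 0.05 and 0 of 5 lower, beside 49.3% of all 8765 tested genes higher and 7.67% lower. After rescaling, 2 of the 5 were higher and 0 lower, beside 2497 genes higher and 2534 lower of all in place of 4322 and 672. The 3 genes of 5 are close to the share of all genes. All 5 passed the filter on low levels, CHRNE through the injured groups alone, so the count is a description.

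**Figure D1:**
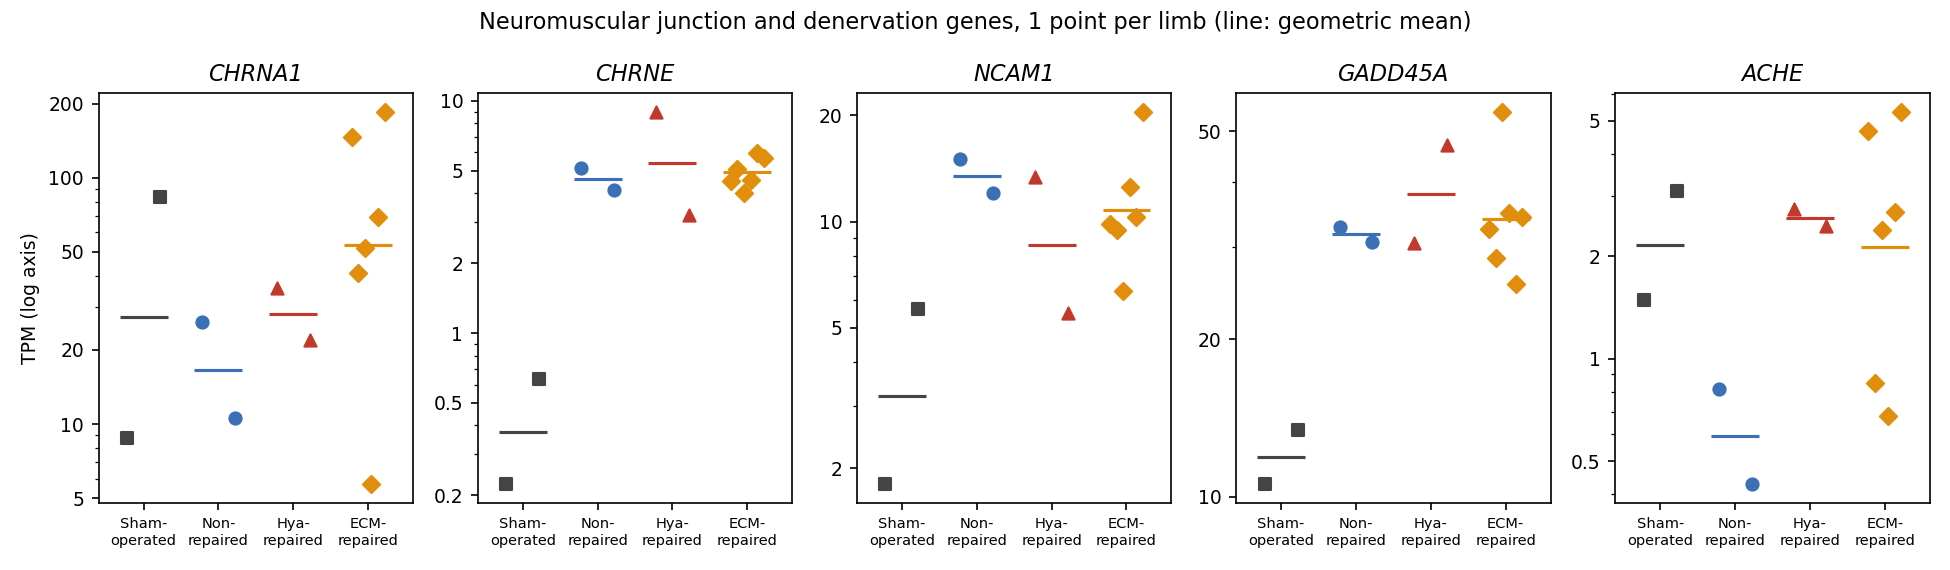
TPM of CHRNA1, CHRNE, NCAM1, GADD45A and ACHE in each of the 12 limbs on log axes that differ between panels, with 1 point per limb and a line at the geometric mean of each group. In 10 of 10 injured limbs CHRNE and GADD45A lie above both shams, as do 49.8% of the tested genes. In 9 of 10 so does NCAM1, whereas CHRNA1 runs from 5.70 to 185 TPM within the ECM-repaired limbs.

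CHRNA1 encodes the acetylcholine-binding alpha subunit of the receptor. Its level was 8.79 and 83.8 TPM in the sham-operated limbs of pigs 025 and 026. It was 25.95 and 10.6 TPM in the non-repaired limbs of pigs 017 and 023, and 35.7 and 22.04 TPM in the Hya-repaired limbs of pigs 016 and 017. Among the ECM-repaired limbs the lowest level was 5.70 TPM (pig 021), the median 60.6 TPM and the highest 185 TPM (pig 024), with 147 TPM in pig 013. The sham-operated limbs were already 9.54-fold apart, and 7 of the 10 VML-injured limbs lay between them. The mean was 59.4 ± 59.9 TPM (SD, n = 10) in VML-injured and 46.3 ± 53.1 TPM (SD, n = 2) in sham-operated limbs.

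The log2 fold change of CHRNA1 between VML-injured and sham-operated limbs was 0.09 (SE 1.11, 95% interval −2.36 to 2.55, limma adjusted p = 0.948). The interval takes in both a marked rise and a marked fall, so no change of either kind was detectable with these limbs. Against the 2 sham-operated limbs alone the log2 fold change was −0.71 (adjusted p = 0.686) in non-repaired, 0.03 (adjusted p = 0.988) in Hya-repaired and 0.96 (SE 1.15, adjusted p = 0.494) in ECM-repaired limbs by limma. These 3 comparisons share the same 2 sham-operated limbs. The sign for VML-injured limbs turned to −0.71 after rescaling, and it was −1.498 with sham pig 025 left out and 1.68 with sham pig 026 left out.

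The limbs differed more in CHRNA1 than in nearly every other gene. Its highest and lowest values in VML-injured limbs were 32.5-fold apart. The SD of its log2 level over the 10 VML-injured limbs was 1.52, at or above that of 99.3% of the tested genes, whose median SD was 0.40. The limbs of pigs 013 and 024, both ECM-repaired, were above both sham-operated limbs and that of pig 021, also ECM-repaired, was below both. Without the limbs of pigs 013 and 024 the log2 fold change of CHRNA1 for VML-injured limbs was −0.17 (adjusted p = 0.881, limma), within a range of adjusted p from 0.348 to 1.000 over the 22 alternatives tried.

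CHRNE encodes the epsilon subunit, which takes the place of the embryonic gamma subunit (CHRNG) in the receptors of adult junctions. It was at 0.223 and 0.635 TPM in the sham-operated limbs of pigs 025 and 026. It was at 5.13 and 4.14 TPM in the non-repaired limbs of pigs 017 and 023, and at 8.95 and 3.24 TPM in the Hya-repaired limbs of pigs 016 and 017. Among the ECM-repaired limbs it ranged from 4.03 TPM (pig 018) through a median of 4.84 TPM to 5.94 TPM (pig 022). Every VML-injured limb was above both sham-operated limbs, as in 49.8% of the tested genes. The mean was 5.13 ± 1.56 TPM (SD, n = 10) in VML-injured and 0.429 ± 0.291 TPM (SD, n = 2) in sham-operated limbs.

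CHRNE rose by a log2 fold change of 2.60 in VML-injured limbs (SE 0.33, limma adjusted p = 4.20e-05), and by 2.14 after rescaling (adjusted p = 0.000106). It passed in each injured group against sham: the log2 fold change was 2.50 (adjusted p = 0.000513) in non-repaired, 2.71 (adjusted p = 0.000414) in Hya-repaired and 2.58 (adjusted p = 5.12e-05) in ECM-repaired limbs by limma. After rescaling these were 1.89, 2.39 and 2.15 and all 3 passed. Of the 5 genes it was the one whose call held in every alternative in which it could be fitted, 21 of 21, with log2 fold changes of 2.09 to 3.38 and adjusted p from 6.56e-06 to 0.00290. CHRNE passed the filter on low levels through the injured groups alone, so its calls are a description. The filter of 5 TPM left it out of the fit, and the 21 alternatives include a fit with no filter. Within the 6 ECM-repaired limbs the levels of CHRNE lay within 1.48-fold of each other, against 32.5-fold for CHRNA1.

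The entry named CHRNE needs care. In the RefSeq genes of Sscrofa11.1, an assembly other than the one the study used, CHRNE is annotated as a long non-coding RNA and overlaps the protein-coding gene MINK1, a kinase of broad expression. The counting was not stated to use strand, and reads from sequence that overlapping transcripts share cannot then be told apart. The overlap is one of gene spans, and whether the transcripts share sequence was not examined. MINK1 was at 5.30 and 9.08 TPM in the sham-operated limbs and at 10.9 to 28.003 TPM in the VML-injured limbs. Its log2 fold change was 1.34 (SE 0.37, limma adjusted p = 0.00889), which after rescaling was 0.55 and no longer passed (adjusted p = 0.0539), and its part in the values of CHRNE was not tested.

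ACHE encodes acetylcholinesterase, the enzyme that ends transmission at the junction. Its level was 1.49 and 3.12 TPM in the sham-operated limbs of pigs 025 and 026. It was 0.817 and 0.429 TPM in the non-repaired limbs of pigs 017 and 023, and 2.75 and 2.46 TPM in the Hya-repaired limbs of pigs 016 and 017. Among the ECM-repaired limbs the lowest was 0.681 TPM (pig 021), the median 2.54 TPM and the highest 5.30 TPM (pig 024). Both non-repaired limbs were below both sham-operated limbs, both Hya-repaired limbs lay between the sham-operated limbs, and the ECM-repaired limbs fell on either side. In all, 2 VML-injured limbs were above and 4 below both sham-operated limbs.

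The mean of ACHE was 2.30 ± 1.68 TPM (SD, n = 10) in VML-injured and 2.31 ± 1.15 TPM (SD, n = 2) in sham-operated limbs, with a log2 fold change of −0.35 (SE 0.55, 95% interval −1.53 to 0.84, limma adjusted p = 0.604), and it was −0.99 after rescaling (adjusted p = 0.111). In non-repaired limbs the log2 fold change against sham was −1.28 (SE 0.69, limma adjusted p = 0.140). This became a call of −1.997 after rescaling (adjusted p = 0.0255) and, with no change in size, when the non-repaired and sham-operated limbs were fitted alone (adjusted p = 0.0107), within a range of adjusted p from 0.0107 to 0.436 over the 22 alternatives. The log2 fold change was 0.21 (adjusted p = 0.829) in Hya-repaired and 0.04 (adjusted p = 0.960) in ECM-repaired limbs by limma. Like CHRNA1, ACHE was uneven between limbs: its highest and lowest VML-injured values were 12.4-fold apart and its SD was at or above that of 95.5% of the tested genes. In the RefSeq genes ACHE overlaps a long non-coding RNA, LOC110259881.

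NCAM1 encodes the neural cell adhesion molecule, which lies at the junction, on Schwann cells and axons and on regenerating or denervated fibers. It was at 1.80 and 5.66 TPM in the sham-operated limbs of pigs 025 and 026. It was at 15.0 and 12.05 TPM in the non-repaired limbs of pigs 017 and 023, and at 13.4 and 5.50 TPM in the Hya-repaired limbs of pigs 016 and 017. Among the ECM-repaired limbs it ranged from 6.37 TPM (pig 018) through a median of 10.1 TPM to 20.4 TPM (pig 024). In 9 of 10 VML-injured limbs it exceeded both sham-operated limbs, and the exception, the Hya-repaired limb of pig 017, was just below the sham-operated limb of pig 026.

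The mean of NCAM1 was 11.5 ± 4.32 TPM (SD, n = 10) in VML-injured and 3.73 ± 2.73 TPM (SD, n = 2) in sham-operated limbs. It rose by a log2 fold change of 1.58 (SE 0.44, limma adjusted p = 0.00901), and by 0.85 after rescaling (adjusted p = 0.0438). The call rested on the sham-operated limb of pig 025: without it the log2 fold change was 0.87 and the adjusted p 0.219, the highest of the 22 alternatives, whose lowest was 0.00378. In single groups NCAM1 passed in non-repaired limbs with a log2 fold change of 1.89 (adjusted p = 0.0147, limma) and in ECM-repaired limbs with 1.59 (adjusted p = 0.0101), and in Hya-repaired limbs it was 1.28 (SE 0.56, adjusted p = 0.0862). After rescaling it was 0.88 (adjusted p = 0.0428) in ECM-repaired and 0.68 (adjusted p = 0.199) in Hya-repaired limbs by limma.

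The single-group calls of NCAM1 were easily moved. In non-repaired limbs the call was lost after rescaling (log2 fold change 0.99, limma adjusted p = 0.0721), without the limb of pig 017 (adjusted p = 0.0771) and with sham pig 025 left out (adjusted p = 0.172), in a range from 0.00646 to 0.172. In ECM-repaired limbs it was lost without that sham-operated limb (log2 fold change 0.87, adjusted p = 0.223). In Hya-repaired limbs it passed once the limb of pig 017 (log2 fold change 1.88, adjusted p = 0.0292) or that of sham pig 026 (1.99, adjusted p = 0.0294) was left out in limma.

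Summed levels of marker lists of other cell types that carry NCAM1 differed between the groups as well. The 9 Schwann cell genes in the table summed to 23.2 and 24.2 TPM in sham-operated muscle and to 37.6 to 164 TPM in the VML-injured limbs. S100B, which is not restricted to Schwann cells, made up most of that sum, at 14.8 and 16.6 TPM and 29.5 to 103 TPM, whereas the myelin gene MBP, at 2.26 and 2.32 TPM in sham-operated muscle, was below both in 8 of 10 VML-injured limbs. The 11 motor nerve genes in the table summed to 34.8 and 38.6 TPM against 49.8 to 128 TPM. VAMP2 was the largest part of that sum, at 19.5 and 19.996 TPM against 27.3 to 58.3 TPM. STMN2, NEFL and NEFM were above both sham-operated limbs in 10 of 10 VML-injured limbs. RAB3A was below both in 10 of 10, and CHAT was listed at 0 in every library. Whether the sum follows the amount of motor nerve was not tested. The 10 T and NK lymphocyte genes summed to 4.23 and 7.40 TPM against 15.9 to 85.1 TPM. The Hya-repaired limb of pig 017 had the lowest NCAM1 of the VML-injured limbs, the lowest sum of each of these 3 lists and the highest fiber sum. The limb of pig 024 had the highest NCAM1 and the highest Schwann cell and motor nerve sums. The limb of pig 018 went the other way, with the highest T and NK lymphocyte sum (85.1 TPM), a Schwann cell sum of 112 TPM that only pig 024 exceeded, and an NCAM1 level of 6.37 TPM that was the lowest but 1. The part of these cells in the level of NCAM1 was not tested.

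GADD45A encodes a stress sensor that is strongly induced in denervated and atrophying fibers and is also induced by DNA damage and growth arrest in many cells. It was at 10.6 and 13.4 TPM in the sham-operated limbs of pigs 025 and 026. It was at 32.8 and 30.7 TPM in the non-repaired limbs of pigs 017 and 023, and at 30.5 and 47.2 TPM in the Hya-repaired limbs of pigs 016 and 017. Among the ECM-repaired limbs it ranged from 25.5 TPM (pig 022) through a median of 33.4 TPM to 54.4 TPM (pig 018). Every VML-injured limb was above both sham-operated limbs, as in 49.8% of the tested genes. The mean was 35.1 ± 8.86 TPM (SD, n = 10) in VML-injured and 11.98 ± 2.003 TPM (SD, n = 2) in sham-operated limbs.

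GADD45A rose by a log2 fold change of 1.496 (SE 0.27, limma adjusted p = 0.000559). After rescaling by trimmed means it was 0.69 and no longer passed (adjusted p = 0.0945, the highest of the 22 alternatives, whose lowest was 0.000284). In single groups it rose by a log2 fold change of 1.38 (adjusted p = 0.00582, limma) in non-repaired, 1.63 (adjusted p = 0.00280) in Hya-repaired and 1.48 (adjusted p = 0.000744) in ECM-repaired limbs. The rescaled values were 0.40 (adjusted p = 0.459), 0.98 (adjusted p = 0.0786) and 0.70 (adjusted p = 0.0999) by limma, none of which passed. The call in non-repaired limbs was also lost with sham pig 025 left out (adjusted p = 0.0565).

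**Figure D2:**
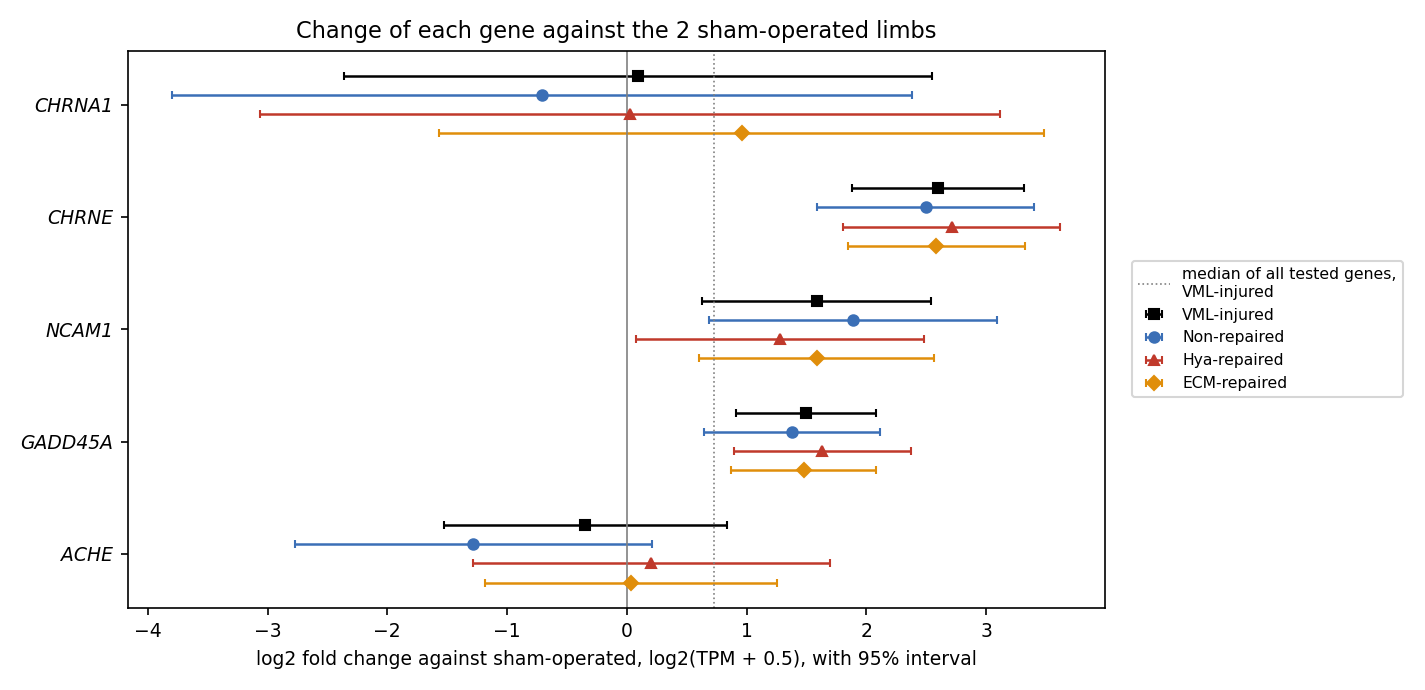
Log2 fold change of each gene against the 2 sham-operated limbs, with its 95% interval from limma, for all VML-injured limbs and for each injured group alone, and these comparisons share those 2 limbs. The dotted line marks the median of all tested genes for VML-injured limbs, 0.73, and the intervals of CHRNE lie wholly above it, whereas those of CHRNA1 and ACHE span 0.

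In single groups, 3 of the 5 genes were called higher in non-repaired limbs (45.1% of all tested genes), 2 of 5 in Hya-repaired limbs (33.8% of all) and 3 of 5 in ECM-repaired limbs (47.9% of all). None was called lower, whereas 1.19%, 3.74% and 9.98% of all tested genes were in these groups. With sham pig 025 left out, fewer of the 5 were called in non-repaired limbs, and fewer of all tested genes were too. That fit rests on 1 sham-operated limb. After rescaling 1 of 5 was called in Hya-repaired limbs, a description only, since the share of all genes in that setting is not given here. Ordered by mean log2 level, CHRNE and GADD45A ran from Hya-repaired through ECM-repaired and non-repaired to sham-operated limbs, and NCAM1 ran from non-repaired through ECM-repaired and Hya-repaired to sham-operated limbs. CHRNA1 ran from ECM-repaired through Hya-repaired and sham-operated to non-repaired limbs, and ACHE from Hya-repaired through ECM-repaired and sham-operated to non-repaired limbs. The levels of neighboring injured groups overlapped for CHRNA1, CHRNE, NCAM1 and GADD45A, and only ACHE had its non-repaired limbs, at 0.817 TPM or less, clear of both Hya-repaired limbs.

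Repair was compared with no repair among the injured limbs. Between injured groups limma called 0 of the 5 genes and 0 of all 8765 genes (0% of all) in each of 4 comparisons, with 194 genes at an unadjusted p under 0.05 for Hya-repaired against non-repaired, 71 for ECM-repaired against non-repaired, 205 for ECM-repaired against Hya-repaired and 113 for ECM-repaired against the injured limbs without ECM. The largest difference was that of CHRNA1, 1.66 higher on the log2 scale in ECM-repaired than in non-repaired limbs (95% interval −0.86 to 4.19, limma adjusted p = 0.904). ACHE was 1.32 higher on the log2 scale in ECM-repaired than in non-repaired limbs (95% interval 0.10 to 2.54, limma adjusted p = 0.904) and 1.49 higher in Hya-repaired than in non-repaired limbs (95% interval −0.01 to 2.98, adjusted p = 0.912). For CHRNA1 the difference of ECM-repaired from injured limbs without ECM was 1.30 (SE 0.91, 95% interval −0.70 to 3.29, limma adjusted p = 1.000), so these limbs could not tell a large difference from none.

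The intervals were narrower for the other genes. Against injured limbs without ECM, the log2 difference of ECM-repaired limbs was −0.02 (95% interval −0.61 to 0.56) for CHRNE, 0.00 (−0.77 to 0.78) for NCAM1 and −0.03 (−0.51 to 0.45) for GADD45A. For Hya-repaired against non-repaired limbs the log2 difference was 0.22 (−0.69 to 1.12) for CHRNE, −0.62 (−1.82 to 0.59) for NCAM1 and 0.25 (−0.48 to 0.99) for GADD45A. Within pig 017, NCAM1 was 15.0 TPM in the non-repaired and 5.50 TPM in the Hya-repaired limb, whereas ACHE was 0.817 and 2.46 TPM and GADD45A 32.8 and 47.2 TPM. CHRNA1 was alike in the limbs of this pig, at 25.95 and 22.04 TPM, and CHRNE was 5.13 and 3.24 TPM. This pair is 1 pig and was not tested.

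Since junction genes are transcribed in muscle fibers, the 5 genes were also set against the fiber genes of the same limb, as log2(TPM + 0.5) of the gene minus the mean of the 22 fiber genes. The mean difference between VML-injured and sham-operated limbs on this scale was 4.96 for CHRNE, 3.95 for NCAM1, 3.85 for GADD45A, 2.80 for CHRNA1 and 2.17 for ACHE. In 10 of 10 VML-injured limbs CHRNE, NCAM1 and GADD45A exceeded both sham-operated limbs, ACHE did so in 9 and CHRNA1 in 7, where 90.1% of all tested genes had all 10 limbs above. A two-sided exact permutation test gave p = 0.0303 for CHRNE, NCAM1 and GADD45A, the smallest that the 66 splits of 12 limbs allow, and adjusted over the 5 genes each came to 0.0505. For ACHE the exact permutation p was 0.0606 (adjusted 0.0758) and for CHRNA1 it was 0.152.

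**Figure D3:**
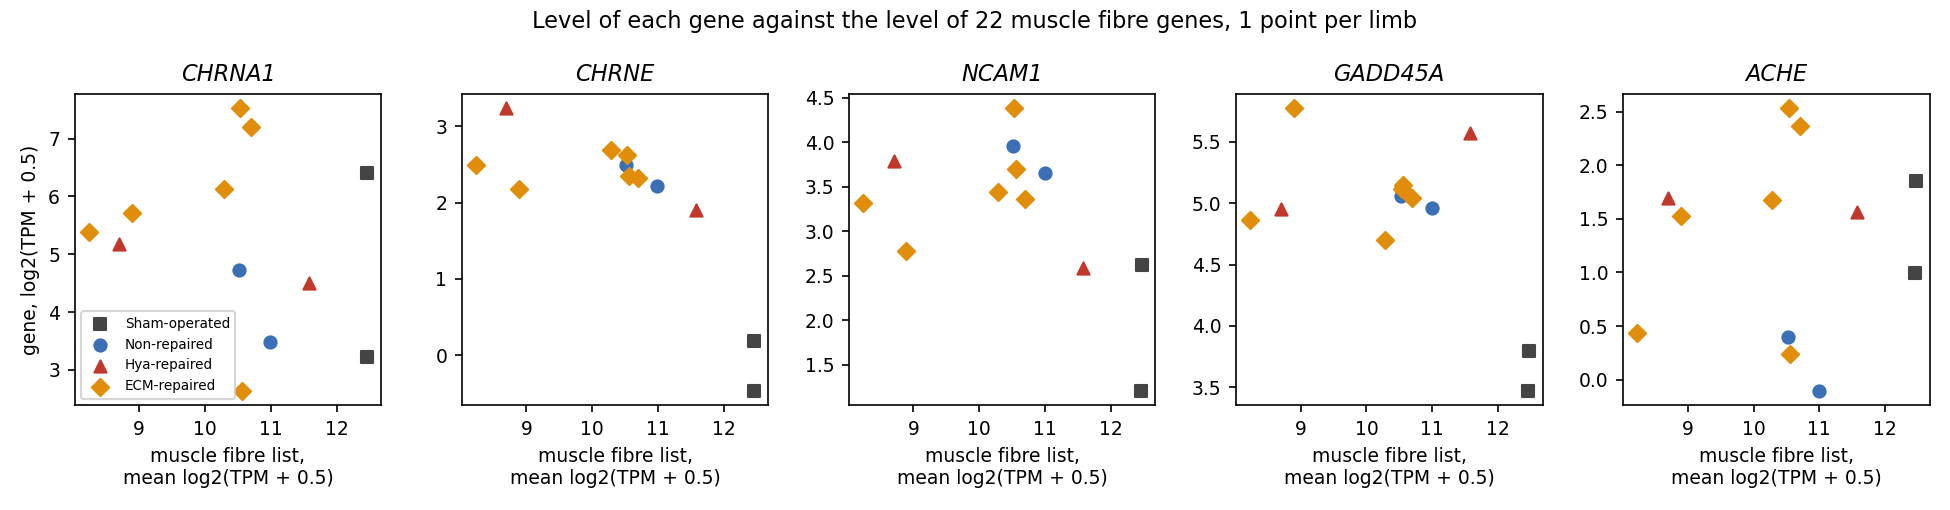
Level of each gene, log2(TPM + 0.5), against the mean log2(TPM + 0.5) of 22 muscle fiber genes, with 1 point per limb and a scale of its own in each panel. The sham-operated limbs stand to the right at the highest fiber level, and among the injured limbs no gene follows the fiber level closely.

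Among the 10 VML-injured limbs no test of the 5 genes against the fiber genes passed. Pearson's r with the fiber mean was −0.52 for CHRNE (permutation p = 0.125, adjusted 0.627; Spearman's rho −0.58, permutation p = 0.0891, adjusted 0.445), and it was −0.25 without the 2 limbs farthest from the median fiber level, those of pigs 014 and 016. For CHRNA1 r was −0.17 (permutation p = 0.647) and rho −0.32 (p = 0.366). For NCAM1 r was 0.03 (permutation p = 0.936) and rho −0.09 (p = 0.812), for GADD45A 0.10 (p = 0.810) and 0.41 (p = 0.247), and for ACHE 0.03 (p = 0.926) and −0.12 (p = 0.757). The adjusted p over the 5 genes was 0.936 for Pearson's r of these 4 genes.

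CHRNA1 and ACHE went up and down together from limb to limb. The limbs of pigs 013 and 024 held the 2 highest values of both genes, and the lowest CHRNA1 value, in pig 021, came with an ACHE level of 0.681 TPM. Over the 10 VML-injured limbs, r of the log2 levels was 0.85 (permutation p = 0.00177, adjusted over the 10 pairs of the 5 genes 0.0177) and rho was 0.82 (permutation p = 0.00574, adjusted 0.0574). It was 0.78 without the 2 limbs farthest from the median of CHRNA1, those of pigs 024 and 021, and 0.79 to 0.90 with any 1 limb left out. No other pair passed: the largest r were 0.60 for CHRNE with NCAM1, −0.60 for CHRNE with GADD45A and −0.58 for NCAM1 with GADD45A (permutation p adjusted 0.193 each). The pairs were looked at after the values had been seen, and pig 017 gave 2 of the 10 limbs.

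**Figure D4:**
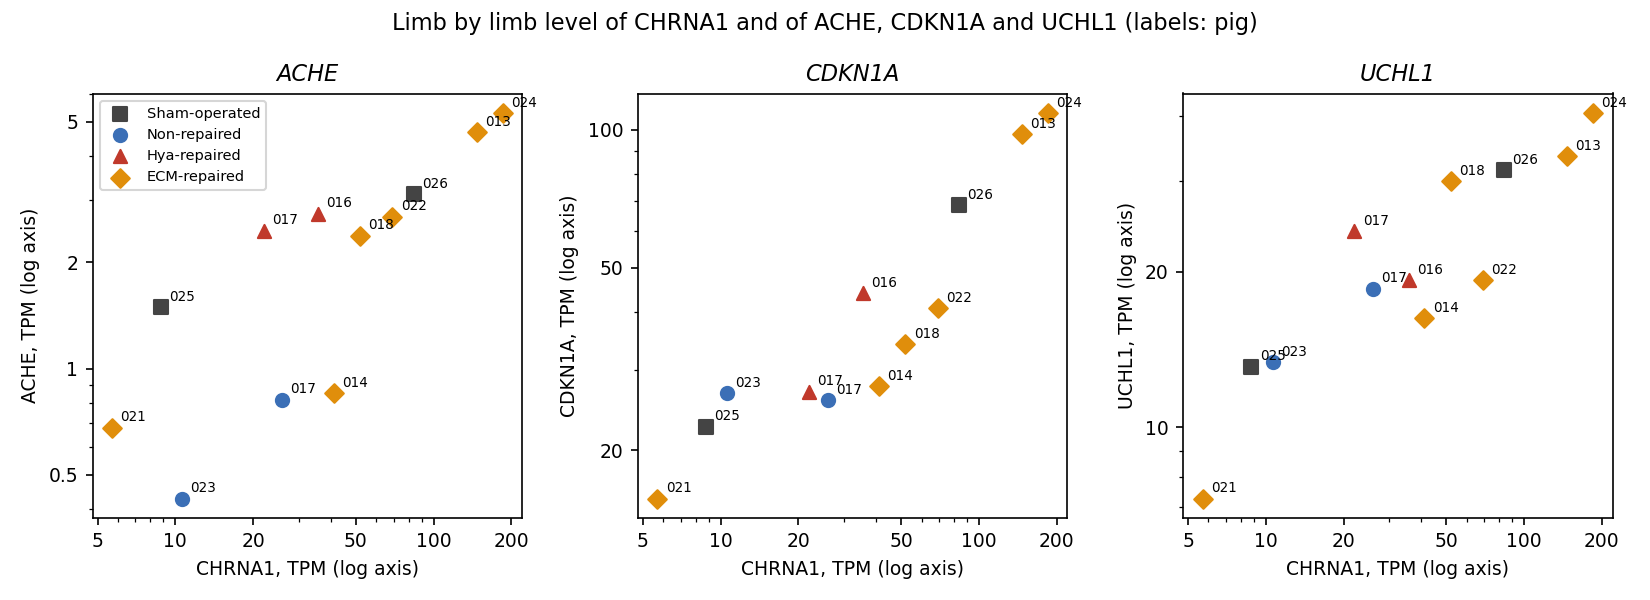
TPM of ACHE, CDKN1A and UCHL1 against TPM of CHRNA1 on log axes, with 1 point per limb labeled by its pig. All 3 genes are high in the limbs of pigs 013 and 024 and low in that of pig 021, and the sham-operated limbs of pigs 025 and 026 lie apart along the same direction.

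The genes whose levels were most like those of CHRNA1 over the 12 libraries were LOC102166535, of which the reference table holds no symbol (r = 0.93, and 0.95 over the 10 VML-injured limbs), CDKN1A (0.92 and 0.91) and UCHL1 (0.90 and 0.89). CDKN1A encodes the cell cycle inhibitor p21 and UCHL1 a neuronal and fiber ubiquitin hydrolase, and both were on the list of denervation genes. Neither was called in VML-injured against sham-operated limbs, with log2 fold changes of −0.21 (adjusted p = 0.791, limma) and −0.07 (adjusted p = 0.914). Whether the other genes of that list follow CHRNA1 was not tested. CDKN1A was 22.5 and 68.6 TPM in the sham-operated limbs, 97.9 TPM in the limb of pig 013, 109 TPM in that of pig 024 and 15.7 TPM in that of pig 021. UCHL1 was 13.1 and 31.5 TPM in the sham-operated limbs and 33.4, 40.6 and 7.28 TPM in those 3 limbs. For ACHE the most alike were S100A1, a calcium-binding protein of striated muscle (r = 0.89 over 12 and 0.89 over 10 limbs), NUDT14 (0.87 and 0.93) and CDKN1A (0.85 and 0.86). S100A1 was 191 and 424 TPM in the sham-operated limbs of pigs 025 and 026, 718 and 688 TPM in the limbs of pigs 013 and 024, and 64.7 TPM in that of pig 021. These r describe the limbs and were not tested.

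For the 3 genes that rose, the closest patterns over 12 libraries largely restate the gap between sham-operated and VML-injured limbs. For CHRNE they were APEX2 (r = 0.99, and 0.97 over the 10 VML-injured limbs), MXRA8 (0.99 and 0.93) and PIK3R2 (0.99 and 0.92). APEX2 encodes a DNA repair nuclease and MXRA8 a matrix remodeling protein of mesenchymal cells. For NCAM1 they were FGF11 (0.97 and 0.93), ZDHHC5 (0.97 and 0.91) and LOC100628118, which is elastin in RefSeq (0.97 and 0.92). For GADD45A they were PRR13 (0.96 and 0.79), STMN1 (0.95 and 0.73) and POMC (0.94 and 0.86).

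The other genes of the pathway were taken from 3 lists. Of 26 genes of agrin-MuSK signaling and the junction scaffold, 13 were in the table and 12 were tested, of which 6 were higher and 2 lower in VML-injured limbs, with a median log2 fold change of 0.73, equal to that of all genes, of which 49.3% were higher and 7.67% lower. After rescaling the same list had 2 higher and 5 lower and a median of −0.04, beside 2497 higher and 2534 lower of all 8765 tested genes. With either sham-operated limb left out fewer genes of the list were called, from a fit with 1 sham-operated limb. Fewer of all tested genes were called too with sham pig 025 left out. The agrin receptor LRP4 was at 0.302 and 0.317 TPM in sham-operated limbs and at 0.0560 to 0.793 TPM in VML-injured limbs, below the filter. AGRN, DOK7 and RAPSN were not analysed here.

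SHC1, an adaptor of receptor tyrosine kinases, rose by a log2 fold change of 1.91 (adjusted p = 0.000476, limma), from 7.16 and 10.7 TPM in sham-operated limbs to 17.9 to 53.8 TPM. The syntrophins, which join the dystrophin complex under the membrane, parted: SNTB1 was 15.2 and 17.4 TPM in sham-operated and 0.803 to 5.91 TPM in VML-injured limbs (log2 fold change −2.28, adjusted p = 0.00309 by limma), whereas SNTB2 was 0.993 and 1.14 TPM and 2.21 to 5.51 TPM (1.39, adjusted p = 0.00329). In both genes the groups did not overlap, as in 8.52% of all tested genes with every VML-injured limb below and 49.8% with every one above both sham-operated limbs. CDK5, a kinase that disperses receptor clusters, was 1.17 higher (adjusted p = 0.00212), CRK, an adaptor of the DOK7 pathway, 1.204 higher (adjusted p = 0.00580) and PRKAR1A, a regulatory subunit of protein kinase A, 0.80 higher (adjusted p = 0.0225) by limma. None of these 3 passed after rescaling, and the sign of PRKAR1A turned to −0.02. SHC1 (1.11), SNTB1 (−3.07) and SNTB2 (0.77) still passed on the rescaled values.

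Of 23 denervation genes, 15 were in the table and 13 were tested, with 3 higher, 3 lower and a median log2 fold change of −0.23 (2 higher, 5 lower and a median of −1.04 after rescaling). The share called higher was below the 49.3% of all tested genes, of which 7.67% were lower. After rescaling 2497 of all 8765 tested genes were higher and 2534 lower. RUNX1, a transcription factor that sustains denervated fibers and also acts in blood cells, was 0.2996 and 1.82 TPM in sham-operated and 4.72 to 18.7 TPM in VML-injured limbs, a log2 fold change of 2.87 (adjusted p = 0.000149, limma). NCALD, a calcium sensor, was 1.86 and 3.13 TPM and 8.32 to 26.6 TPM (2.25, adjusted p = 0.000491 by limma). TNFRSF12A, the receptor of the cytokine TWEAK, was 54.2 and 65.1 TPM and 98.7 to 201 TPM (1.26, adjusted p = 0.00331 by limma), and did not pass after rescaling. In these 3 genes every VML-injured limb was above both sham-operated limbs, as in 49.8% of all tested genes. After rescaling RUNX1 was 2.32 and NCALD 1.53 higher, and both passed.

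The muscle-restricted ubiquitin ligases of the list pointed the other way. FBXO32 (atrogin-1) was 33.9 and 42.4 TPM in sham-operated and 1.98 to 32.3 TPM in VML-injured limbs, a log2 fold change of −1.95 (adjusted p = 0.0451, limma). FBXO40 was 113 and 117 TPM and 1.30 to 30.4 TPM (−3.24, adjusted p = 0.0175 by limma). TRIM63 (MuRF1) was 140 and 198 TPM and 14.4 to 174 TPM (−1.77, adjusted p = 0.0554), and it passed after rescaling. DOK5, a docking protein, was 11.98 and 14.1 TPM and 2.04 to 8.13 TPM (−1.41, adjusted p = 0.0108 by limma). After rescaling the log2 fold changes were −2.75 for FBXO32, −4.05 for FBXO40, −2.60 for TRIM63 and −2.19 for DOK5, and all 4 passed. These lower levels stood beside those of the fiber genes, of which 15 of 22 were lower and 0 higher (22 lower after rescaling), and the part of the fiber content was not tested. With either sham-operated limb left out, 0 genes of the denervation list were called lower, and 1 of the 22 fiber genes. MYOG, HDAC4, MYH3 and MYH8 were not analysed here.

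**Figure D5:**
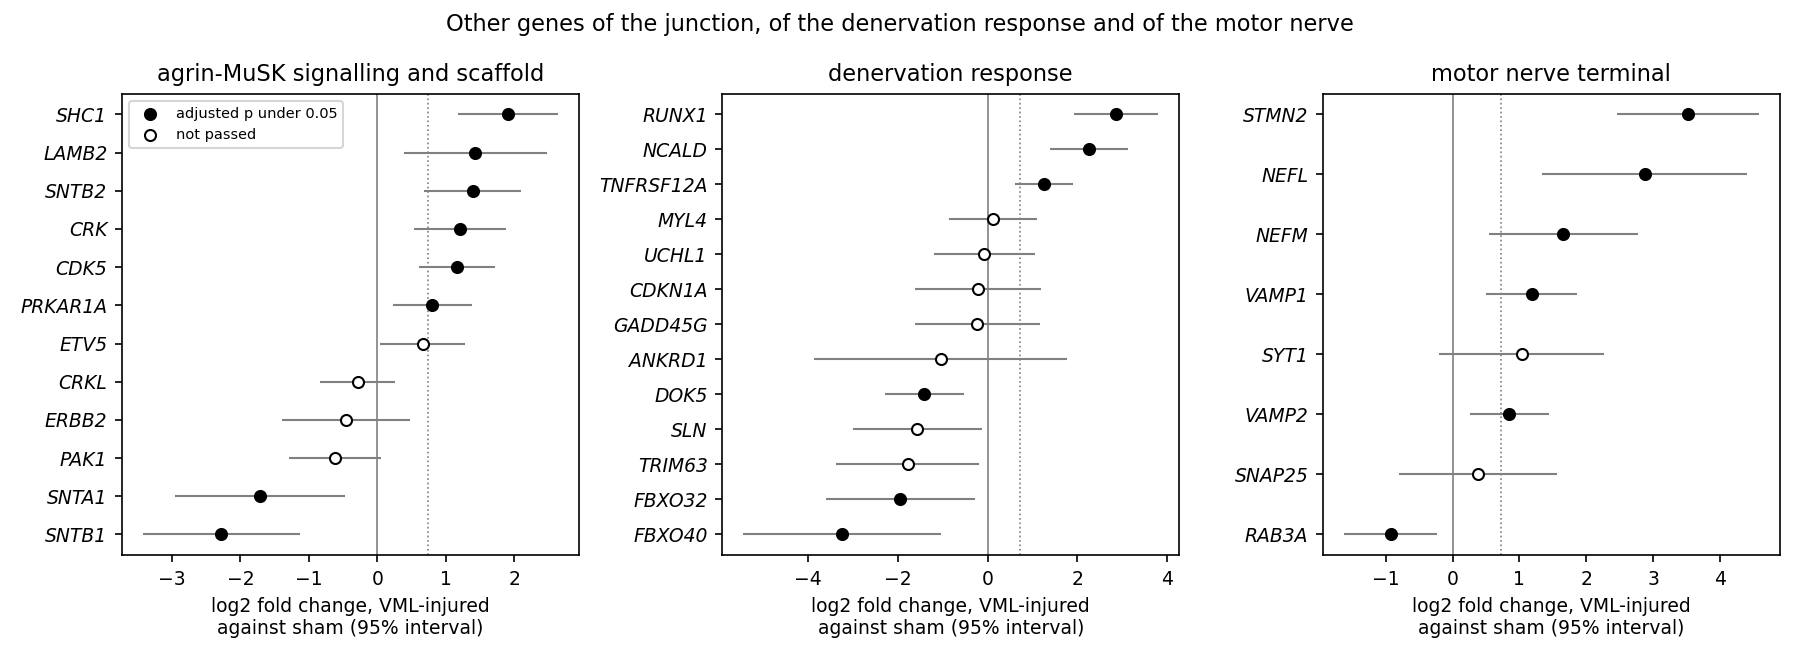
Log2 fold change of VML-injured against sham-operated limbs with its 95% interval from limma for the tested genes of 3 lists, filled where the adjusted p is under 0.05. The dotted line marks the median of all tested genes, 0.73, STMN2 stands highest among the nerve genes and FBXO40 lowest among the denervation genes.

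Of 19 motor nerve terminal genes, 11 were in the table and 8 were tested. Of these, 5 were higher and 1 lower, beside 49.3% higher and 7.67% lower over all tested genes. The median log2 fold change was 1.11, beside 0.73 over all. After rescaling 4 were higher and 1 lower, with a median of 0.63, beside 2497 higher and 2534 lower of all 8765 tested genes. STMN2, a microtubule regulator of growing axons, was 0.0148 and 0.309 TPM in sham-operated and 4.13 to 19.0 TPM in VML-injured limbs, a log2 fold change of 3.52 (adjusted p = 7.58e-05, limma). The neurofilament subunit NEFL was 0.290 and 0.382 TPM and 0.876 to 26.4 TPM (2.87, adjusted p = 0.00464 by limma), and NEFM was listed at 0 and at 0.0150 TPM and at 0.144 to 11.7 TPM (1.66, adjusted p = 0.0156). STMN2, NEFL, NEFM, VAMP1, RUNX1 and SNTB2, like CHRNE, passed the filter through injured groups alone.

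Of the vesicle proteins, VAMP1 was 1.18 higher (adjusted p = 0.00684, limma) and VAMP2 0.85 higher (adjusted p = 0.0185, not passed after rescaling), and RAB3A, at 13.01 and 15.2 TPM in sham-operated and 3.62 to 10.8 TPM in VML-injured limbs, had a log2 fold change of −0.93 (adjusted p = 0.0274). After rescaling RAB3A was −1.72 and VAMP1 0.60, and both passed, as did STMN2 (3.25), NEFL (2.41) and NEFM (1.54). CHAT, the acetylcholine-making enzyme that defines motor neurons, was listed at 0 in every library. With either sham-operated limb left out fewer genes of this list were called, from a fit with 1 sham-operated limb. With sham pig 025 left out fewer of all tested genes were called too.

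Marker lists of other cells were summed and counted as well, beside 49.3% of all tested genes higher and 7.67% lower. The rescaled counts stand beside 2497 of all 8765 tested genes higher and 2534 lower. The 9 fibroblast genes in the table summed to 1130 and 1591 TPM in sham-operated and 37908 to 98644 TPM in VML-injured limbs, and 9 of 9 were higher. The 9 macrophage genes summed to 36.5 and 60.4 TPM and 694 to 1866 TPM, and 9 of 9 were higher. Of 5 tested Schwann cell genes 1 was higher and of 5 tested T and NK lymphocyte genes 3 were (1 after rescaling). Of the 6 myogenic regulators 3 were lower (6 after rescaling), and of the 7 endothelial genes 0 were called in either direction (2 lower after rescaling). The red blood cell genes summed to 16.1 and 81.2 TPM and 13.8 to 380 TPM, with 1 of 2 tested genes higher (0 after rescaling). All 5 tested T and NK lymphocyte genes, and HBM of the 2 tested red blood cell genes, passed the filter through injured groups alone. The counts of these 2 lists are therefore a description. The part of these other cells in the levels of the 5 genes was not tested.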

How the data were processed

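Per the labels and the study's methods, TruSeq libraries were made from total RNA of whole PT muscle tissue and sequenced as paired ends. The authors pseudoaligned the reads to the UCSC annotation of the pig genome with kallisto at default parameters and deposited TPM values per gene, which hold no counts. The labels give an average depth over the libraries, the depth of each single library is unknown, and precision is limited by the number of limbs. The authors tested genes with DESeq2, which needs counts and was not run. The table holds 11506 names, of which 21 had been turned into dates and were left out, and 0 columns of per-sample values went unused. Of the 10 genes chosen, 5 were matched by name.

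Genes with at least 1 TPM in all limbs of at least 1 group (8765) were fitted as log2(TPM + 0.5) with limma 3.58.1 in R 4.3.3 (trend and robust), with 1 coefficient per group and all 12 limbs sharing 1 spread. VML-injured is the mean of the 3 injured groups. Adjusted p under 0.05 (Benjamini-Hochberg) was called. The fit was tested on simulated data. Levels relative to fiber genes were compared by exact permutation in Python 3.11.15, with p taken as 2 times the smaller tail, and correlations by 100000 permutations. Nothing in the labels says which limbs were prepared together. The alternatives were rescaling by trimmed means or by median of ratios, other pseudocounts, no filter or a filter of 5 TPM, limma with neither trend nor robust estimation, a fit of the compared groups alone, and limbs left out.

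Named genes were all members, the called genes of the 3 pathway lists with the 6 smallest p in each, a fixed set of junction and denervation genes, sums of cell type lists, and the 3 genes with the highest r to each member. MINK1 was named after its overlap had been seen, and pairs of members were chosen after seeing the data. The members and lists were chosen with earlier results of these data known. RefSeq names came from Sscrofa11.1.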

Additional observations from a re-analysis of the deposited data

Results flagged for a closer look

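Only the 6 ECM-repaired limbs were examined for a limb that stood apart from the rest. Of their 16 sets of values, 3 held one. Chance gives about 1 in 20. GADD45A was 54.4 TPM in the limb of pig 018, whereas the other 5 ECM-repaired limbs lay between 25.5 and 34.9 TPM, and the gap made up 0.675 of the whole range, above the critical value of 0.625 for 6 limbs. The same limb had the highest sum of the T and NK lymphocyte genes, 85.1 TPM, with the others between 25.6 and 42.7 TPM (0.712 of the range). The motor nerve terminal genes summed to 128 TPM in the limb of pig 024, with the others between 57.6 and 81.1 TPM (0.667 of the range). VAMP2, the largest part of that sum, ranged from 28.8 to 58.3 TPM over the ECM-repaired limbs.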

How the results depend on the processing

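CHRNE kept its call in VML-injured limbs under all alternatives that could be run for it, NCAM1 in 21 of 22 and GADD45A in 20 of 22. With the limbs rescaled by trimmed means or by median of ratios, 1 of the 5 genes was called in Hya-repaired limbs in place of 2, and with a filter of 5 TPM 1 of the 3 genes fitted was, and with a limb left out 1 to 3 were called in non-repaired limbs. That filter left CHRNE and ACHE out of the fit. Over all genes, 4322 higher and 672 lower in VML-injured limbs became 2497 and 2534 under trimmed means. With sham pig 025 left out, 2566 genes were called in place of 4994, 2200 in place of 4053 in non-repaired, 1456 in place of 3291 in Hya-repaired and 2865 in place of 5075 in ECM-repaired limbs. Fitted with sham limbs alone, Hya-repaired limbs had 1944. The direction of CHRNA1 turned to −0.71 under both rescalings, to −0.000955 without both limbs of pig 017 and to −0.17 without those of pigs 013 and 024, and ran from −1.498 to 1.68 with 1 limb left out; ACHE ran from −0.776 to 0.085. Relative to fiber genes, 1 limb left out gave 4.63 to 5.28 for CHRNE, 3.24 to 4.66 for NCAM1, 3.64 to 4.01 for GADD45A and 1.74 to 2.60 for ACHE. These 4 passed at an adjusted p of 0.0455 without the non-repaired limb of pig 023. CHRNE (4.96), NCAM1 (3.95) and GADD45A (3.85) passed (adjusted exact permutation p = 0.0253) with p from the absolute difference, chosen after seeing the data. The fiber mean itself differed by −2.36 on the log2 scale between VML-injured and sham-operated limbs. Relative to it, 90.1% of all tested genes had every VML-injured limb above both sham-operated limbs, so these passes do not set the genes apart. The r with fiber genes changed sign for NCAM1 with summed fiber TPM (−0.061) and with 1 limb left out (−0.012 to 0.45), for GADD45A (−0.18 to 0.11) and for ACHE (−0.030 to 0.081). The causes were not tested. No paired analysis was possible because the compared groups share at most 1 pig. The ratio of CHRNG to CHRNE and the test for genes below the filter were not run, since CHRNG was not analysed here and no member fell below the filter. TPM keep no depth, so counting error could not be set apart from differences between limbs.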
